A study of Mus musculus with 6 samples.

Results

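Heat shock proteins and their DnaJ partners are the molecular chaperones of the cell, and their transcripts were examined here in the lateral septum (LS), a forebrain region linked to feeding and stress responses. Members were taken by gene symbol: the Hspa (HSP70), Hsp90, Hsph (HSP110), Hspd and Hspe (mitochondrial chaperonin) and Hspb (small heat shock protein) families, and the DnaJ (HSP40) families Dnaja, Dnajb and Dnajc, without pseudogenes. The rule found 74 of the 35415 genes in the count table, and 66 of these were among the 17255 genes with enough reads to be tested. A few of the 74 carry the name without being chaperones themselves, such as Hspbp1, a nucleotide exchange factor of HSP70. The symbol rule counts Hspbp1 in the Hspb family, so values of that family are not those of small heat shock proteins alone.

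The study asked what prolonged olanzapine, a second-generation antipsychotic with metabolic side effects, changes in the LS. Young adult female C57BL/6 mice, all wild type, ate either chow with olanzapine or the same maintenance chow without it for 12 weeks. The measurements are RNA-seq read counts per gene and FPKM, which scales them by gene length and library size. Each group has 3 libraries, and each library is 1 pool of LS tissue from 3 mice, so all errors given are the spread between pools and not between single animals.

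HSP70 proteins bind unfolded stretches of other proteins in a cycle driven by ATP, DnaJ proteins bring them their substrates and start ATP hydrolysis, and nucleotide exchange factors reset the cycle. HSP90 takes over clients that are nearly folded, and small heat shock proteins hold unfolded proteins without ATP. In the cytosol, heat shock factor 1 (Hsf1) raises a part of these genes under protein stress, while chaperones of the endoplasmic reticulum (ER) answer to the unfolded protein response. Neurons depend on the same machinery at synapses, where DnaJ proteins act on synaptic vesicles and clathrin coats.

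The pools held between 38208153 and 39868872 counted reads, so depth was nearly equal. The 7 markers of LS neurons, among them Trpc4, Zic1 and the GABA synthesis genes Gad1 and Gad2, were present in every pool, with a summed level of 374.8 to 479.1 FPKM in the control group and 305.1 to 421.5 FPKM in the olanzapine group. Other cell types varied between pools. The summed level of 8 choroid plexus markers ran from 45.3 to 5349 FPKM in the control pools and from 28.6 to 3440 FPKM in the olanzapine pools. The 6 cortical markers summed to 278.8 FPKM in olanzapine pool 1 and to between 7.08 and 28.5 FPKM in the other 5 pools. All 9 hepatocyte markers other than Ttr were called higher in the olanzapine group, at a summed 119.0 to 157.0 FPKM against 6.96 to 12.6 FPKM in the control group. No marker list was at 0 in full or in any of its genes, and the part of these cells in the chaperone results was tested only for choroid plexus, as given with the ER chaperones. In bulk tissue, fewer cells of a type and less RNA per cell cannot be told apart.

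A few cytosolic chaperones made up most of the summed chaperone level of the LS. On the FPKM scale, Hspa8, the constitutive cytosolic HSP70, had the highest level, at a mean of 985.7 FPKM and 918.7 to 1031 FPKM over the 6 pools. Next came the cytosolic HSP90 genes, Hsp90ab1 at 793.5 FPKM (727.8 to 860.7) and Hsp90aa1 at 382.7 FPKM (354.5 to 421.1). These 3 genes held 54.7% of the summed FPKM of all members, and the ranges of neighbours in this order did not overlap. The ER chaperones Hsp90b1 (GRP94) and Hspa5 (BiP) followed at 181.1 and 161.4 FPKM, and their ranges overlapped although Hsp90b1 was the higher in 6 of 6 pools.

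By family, the Hspa genes held 35.5% of the summed level and the Hsp90 genes 34.3%, followed by Dnajc with 12.7%, Dnaja with 5.05% and Dnajb with 4.88%. The most abundant DnaJ gene was Dnaja1 at 83.8 FPKM, a cytosolic partner of HSP70. Dnajc5, the cysteine string protein of synaptic vesicles, and Dnaja2 followed at 69.3 and 67.9 FPKM with overlapping ranges. Dnajc5 was the higher of these in the control group (73.1 against 65.6 FPKM) and Dnaja2 in the olanzapine group (70.2 against 65.5 FPKM). Of the 74 members, 63 reached a mean of 1 FPKM, 47 reached 10 FPKM and 5 reached 100 FPKM. Stress-inducible HSP70 was low in comparison, with Hspa1a at 4.21 FPKM and Hspa1b at 4.92 FPKM. The total over all members was 3743 to 4074 FPKM in the control pools and 3876 to 4076 FPKM in the olanzapine pools, so the groups overlapped in the total chaperone level.

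**Figure D1:**
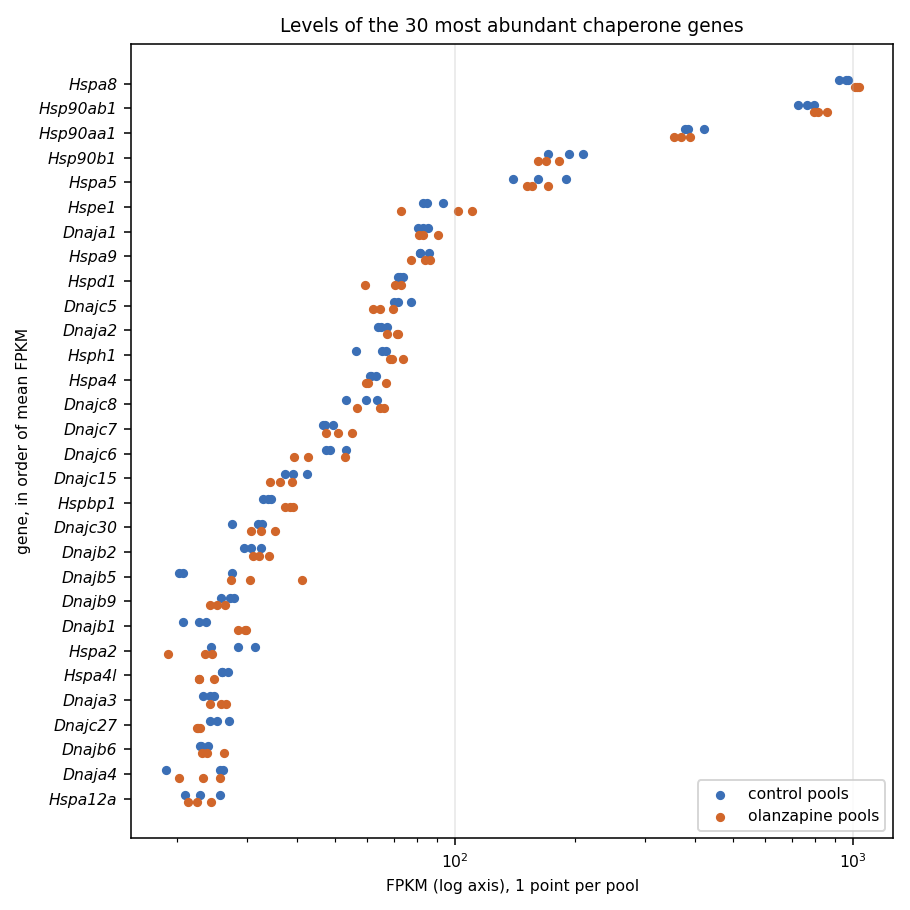
Level of the 30 chaperone genes of highest mean FPKM (horizontal log axis, 1 point per pool, blue for the 3 control pools and orange for the 3 olanzapine pools, each gene on its own line). Hspa8, Hsp90ab1 and Hsp90aa1 stand to the right of all others, and the control and olanzapine points of most genes overlap.

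Between the groups, most chaperone genes lay close together. A gene is called here when edgeR's quasi-likelihood F test gives it a p under 0.05 after Benjamini-Hochberg correction across the genes tested. By this rule 2 of the 66 tested members were called (3.03%), against 2.32% of all genes tested. Dnajb1, a cytosolic HSP40, rose and Dnajb14, a DnaJ protein of the ER membrane, fell. This is 1.52% of the members in each direction, against 1.83% of all genes called higher and 0.493% called lower. The share called among chaperones was thus near that of all genes.

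The median log2 fold change over the 66 members was -0.005, beside 0.004 over all genes tested, and 33 members lay on each side of 0, with 50.7% of all genes above it. At an unadjusted p under 0.05, 6 members were higher (9.09%, all genes 9.19%) and 8 were lower (12.1%, all genes 8.4%), against 17.6% of all genes in either direction. All 3 olanzapine pools lay above all 3 control pools for 8 members (12.1%, all genes 13.3%) and below them for 13 members (19.7%, all genes 11%), and 24.3% of all genes did not overlap in either direction. No member passed the limits of the study, an adjusted p under 0.05 with at least a doubling or halving, which 1.01% of all genes passed, 0.95% higher and 0.058% lower. Counts were also simulated at this depth, with the same set spread between pools for every gene and changes placed only in well-read genes. There the same test called 100% of genes changed 2-fold and 65% of genes changed by 0.5 on the log2 scale. The spread of the real members differs from gene to gene, so these shares do not hold for each member.

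The compartments differed in the side on which their members lay. Of the 30 tested members of cytosol and nucleus, 21 had a log2 fold change above 0 and 9 below it, with a median of 0.07 (0.05 to 0.107 with a pool left out). Their pools did not overlap for 8 genes that were higher (26.7%, all genes 13.3%) and 3 that were lower (10%, all genes 11%) in the olanzapine group. Among the 11 tested ER members the order was the other way, with 3 above 0 and 8 below, a median of -0.12, and 0 higher and 5 lower genes without overlap (45.5% lower, all genes 11%). The ER median ran from -0.158 to -0.094 with a pool left out. The 13 tested members without an assigned compartment leaned the same way, with 4 above 0, 9 below and a median of -0.13. Of these, 0 were higher and 3 lower without overlap (all genes 13.3% and 11%). All 3 tested vesicle and endosome members were below 0 (median -0.17), while 5 of the 8 mitochondrial members were above it. The lower side was thus not particular to the ER. With a pool left out, counts without overlap can only stay or rise, so they cannot test the contrast of ER and cytosol. The ER counts were then between 0 and 1 higher and between 5 and 7 lower. The cytosolic counts were between 8 and 11 higher and between 3 and 6 lower. With 1 pool fewer, 17% to 19.5% of all genes were higher and 14.8% to 18.2% lower without overlap. The difference between the compartments was not tested. Marker lists of several cell types lay on the same side as the ER genes, with no marker of these lists called in edgeR. The median log2 fold change was -0.34 for the LS neuron markers (6 of 7 below 0) and -0.20 for the astrocyte markers (5 of 7 below 0, 2 of them without overlap), whose summed level was 843.3 to 887.5 FPKM in the control group and 747.8 to 870.2 FPKM in the olanzapine group. It was -0.43 for the endothelial markers (7 of 7 below 0, summed 42.6 to 48.6 against 28.8 to 52.2 FPKM) and -0.57 for the ependymal markers (8 of 8 below 0, summed 144.6 to 237 against 83.7 to 170.7 FPKM). Their part in the lower ER and vesicle genes was not tested. On the side of the cytosolic genes lay the striatal markers (7 of 7 above 0, median 0.28, summed 480.8 to 861.4 FPKM in the control group and 499.9 to 1050 FPKM in the olanzapine group). The microglial markers lay there as well, with 6 of 7 above 0 and a median of 0.02 (summed 156.4 to 160.9 against 152.7 to 181.1 FPKM), as did 6 of 6 cortical and 9 of 9 hepatocyte markers. Their part in the higher cytosolic genes was not tested.

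**Figure D2:**
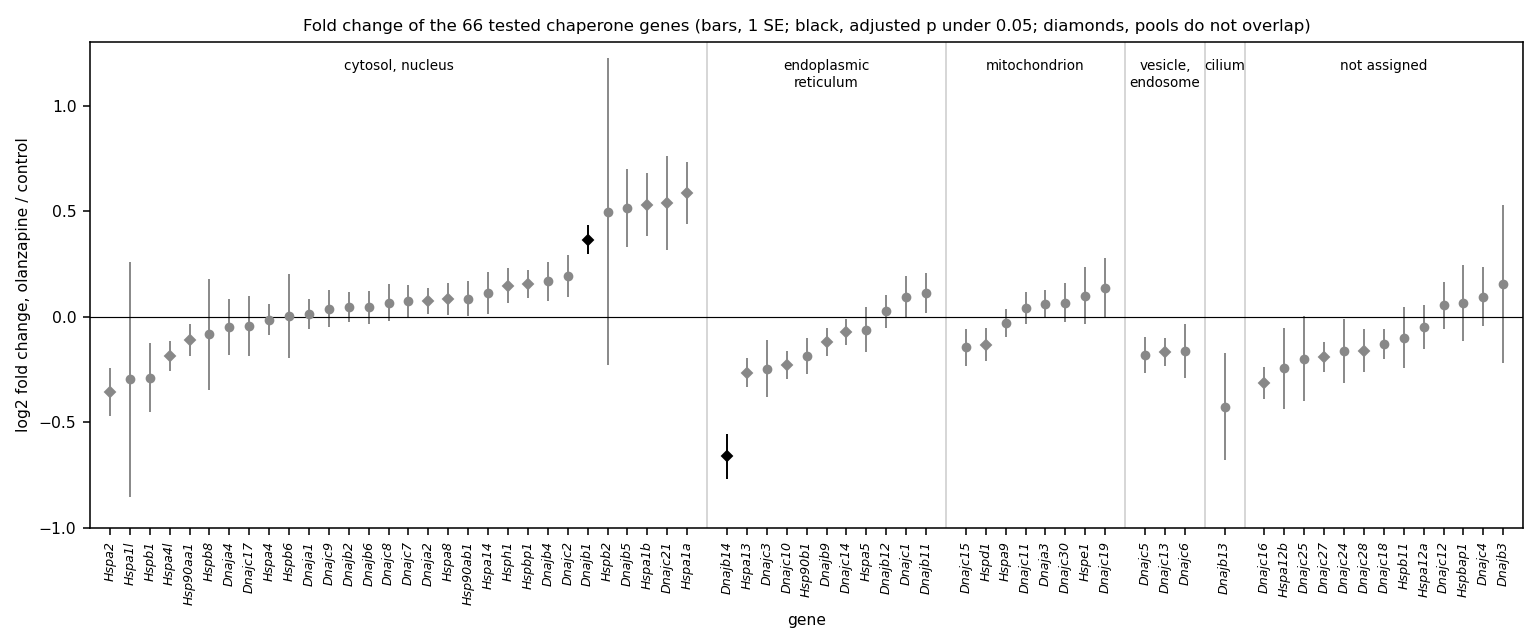
Log2 fold change, olanzapine over control, of the 66 tested chaperone genes by compartment (vertical axis, bars are 1 SE from the edgeR fit with 3 pools per group, black marks adjusted p under 0.05, diamonds mark genes whose pools do not overlap). Dnajb1 in the cytosol and Dnajb14 in the ER are the 2 genes in black, and 8 of 11 ER genes lie below 0.

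Dnajb1 encodes the main stress-inducible HSP40, which delivers substrates to HSP70. The gene lies on the plus strand at chr8:83608193-83612653 (GRCm38, the assembly also named mm10). Its normalized counts were 2667, 3004 and 2871 across the control pools, against 3643, 3619 and 3740 across the olanzapine pools. Every olanzapine pool was above every control pool, and the pools of each group lay close together. The means were 2847 ± 169.9 and 3667 ± 64.1 (SD, n = 3 pools each), a rise of 1.29-fold (log2 0.37 ± 0.07 SE, adjusted p = 0.03895, edgeR). The call was kept without olanzapine pool 1 and was lost when any of the other 5 pools was left out, with edgeR adjusted p from 0.0903 to 0.1516 and the log2 fold change between 0.32 and 0.41. It was also lost with the choroid plexus covariate (adjusted p = 0.05471, edgeR), with a replicate block (adjusted p = 0.1013, edgeR) and by limma on log2(FPKM + 1) without a filter (adjusted p = 0.06117).

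Hsf1, which encodes the transcription factor that switches on heat shock genes, was 1 of 73 tested genes of the chaperone pathway lists outside the symbol rule. It was the only one of them called. Its normalized counts were 1286, 1236 and 1239 across the control pools, against 1737, 1507 and 1669 across the olanzapine pools, without overlap. The rise was 1.31-fold (log2 0.39 ± 0.08 SE, adjusted p = 0.04881, edgeR). Without any 1 of the 6 pools the adjusted p was between 0.0675 and 0.1622 in edgeR, so the call was lost in each of these fits. The log2 fold change lay between 0.34 and 0.44. Over all genes, the same fits called 125 to 308 higher, against 316 with all pools. The call of Hsf1 was also lost, at edgeR adjusted p of 0.0511 to 0.103, under RLE normalization, without the count filter, with an offset for GC content or gene length, with the choroid plexus covariate and with a replicate block. Its log2 fold change in these fits was 0.357 to 0.383.

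Hspa1a and Hspa1b encode the inducible HSP70, and the proteins they make are nearly the same. Both genes lie on the minus strand of chromosome 17, Hspa1a at chr17:34969190-34972156 and Hspa1b at chr17:34956436-34959238. Of all stretches of 75 bases in their transcripts, 61.7% of those of Hspa1a also occur in another gene, first of all Hspa1b, and 55.8% of those of Hspa1b also occur elsewhere, first of all in Hspa1a. How reads that fit both were counted is not given in the sources used here, so the split between the pair is uncertain.

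The start regions of the pair are shown because they are alike as well. Heat shock factors bind heat shock elements, here searched as 2 units, GAANNTTC or TTCNNGAA, on both strands in the window from 250 bases before to 50 bases after each start in RefSeq (GRCm38.p6). The stretches from 144 to 57 bases before the starts follow, with the heat shock element in capitals, at chr17:34972213-34972300 for Hspa1a and chr17:34959295-34959382 for Hspa1b, both on the minus strand.
Hspa1a: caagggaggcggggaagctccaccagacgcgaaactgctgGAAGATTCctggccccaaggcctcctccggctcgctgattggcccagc
Hspa1b: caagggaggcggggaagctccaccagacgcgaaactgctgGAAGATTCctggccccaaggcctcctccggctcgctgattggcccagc
The 88 printed bases are the same in the pair. This element was in 15.1% of 32851 windows of all genes, in 16 of the 60 members with a window (26.7%) and in 7 of the 9 with a window among the members listed as responsive to heat shock factor. The share over all genes counts windows, while members are counted as genes with a match in any window. A gene with several windows has more room for a match, so these shares are not alike. The same holds for the other elements below. Neither window of Dnajb1, nor that of Dnajb14, held a match.

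Hspa1a had normalized counts of 430.6, 316.9 and 353.9 across the control pools, against 502.9, 552.1 and 598.2 across the olanzapine pools. Hspa1b had 375.7, 485.7 and 463.0 across the control pools, against 704.9, 537.3 and 671.6 across the olanzapine pools. Neither gene overlapped between the groups, and the olanzapine pools were the higher ones. Hspa1a stood at a log2 fold change of 0.59 ± 0.15 SE (adjusted p = 0.09285, edgeR) and Hspa1b at 0.53 ± 0.15 SE (adjusted p = 0.1246, edgeR), so neither passed the test alone.

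Since the split of their reads is uncertain, the counts of the pair were also summed, a choice made after the values were seen. The sums were 806.3, 802.6 and 816.9 across the control pools, against 1208, 1089 and 1270 across the olanzapine pools. The control sums lay within a narrower span (SD 7.41) than the counts of either gene (SD 58.0 and 58.1), while the olanzapine sums did not (SD 91.6, against 47.7 for Hspa1a and 88.7 for Hspa1b), and in the control group the pool with the most Hspa1a had the least Hspa1b. The summed pair was 1.47-fold higher in the olanzapine group (808.6 ± 7.41 against 1189 ± 91.6, SD, n = 3 pools each, log2 0.56 ± 0.09 SE, adjusted p = 0.01884, edgeR). The sum was fitted only in the main setting. Whether its call is kept with a pool left out or with other settings was not tested. The opposite strand over 19.0% of the exon bases of Hspa1a is annotated as exon of Gm20481, and whether reads were counted by strand is not given in the sources used here.

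The other genes listed as responsive to heat shock factor lay nearer to 0. Of the 12 on that list, 8 were above 0 and 4 below, with a median of 0.09. The median was 0.01 without olanzapine pool 3 and 0.031 with an offset for gene length. Hsph1, an HSP110 that acts as exchange factor of HSP70, had normalized counts of 14373, 16508 and 16746 across the control pools, against 17463, 16825 and 18474 across the olanzapine pools. The groups did not overlap, though control pool 3 lay close below olanzapine pool 2. Its log2 fold change was 0.15 ± 0.08 SE (adjusted p = 0.4061, edgeR), and 0.08 without control pool 1. Hspb1 (HSP27), a small heat shock protein, lay the other way at -0.29 ± 0.16 SE with overlapping pools (adjusted p = 0.4037, edgeR). It ran from -0.44 without olanzapine pool 2 to -0.18 without control pool 3, and 47.3% of its stretches also occur in another gene, Hsp25-ps1 before all.

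**Figure D3:**
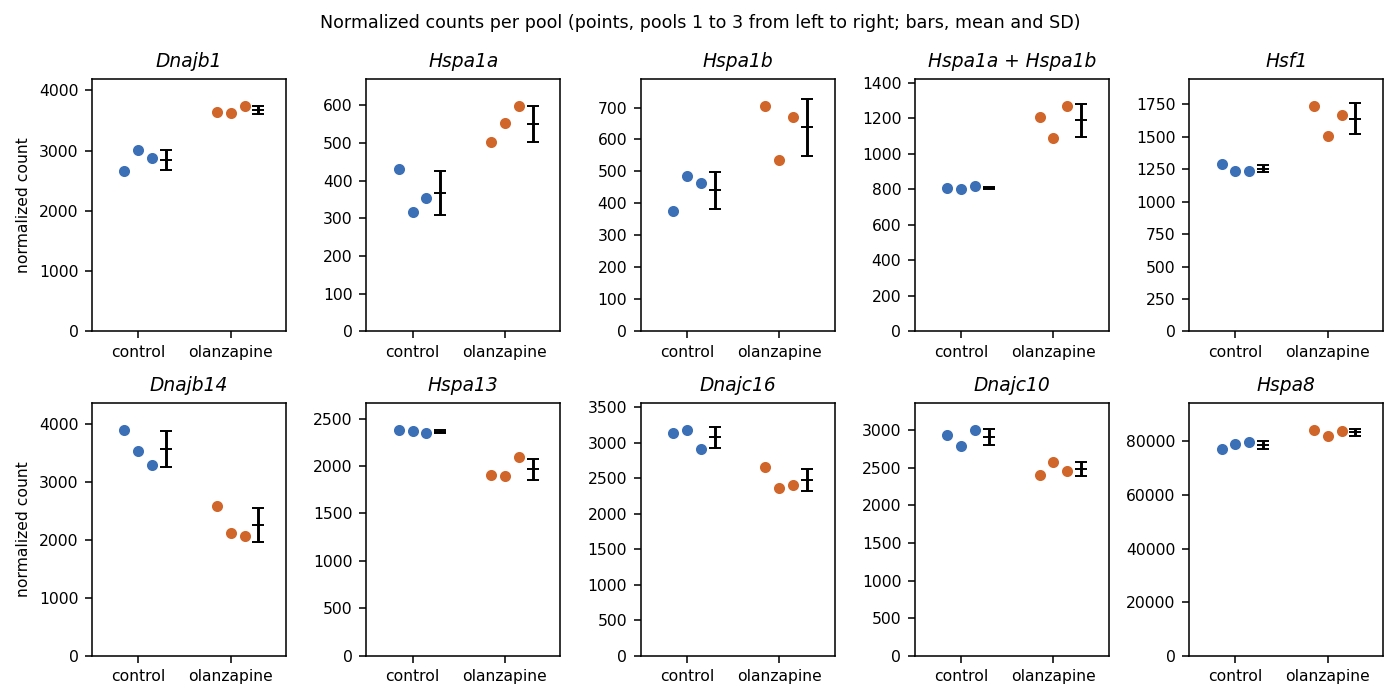
Normalized counts per pool (vertical axes from 0, 1 panel per gene, points are pools 1 to 3 of each group from left to right, the bar beside them the mean and SD of 3 pools). Olanzapine pools lie above control pools for Dnajb1, Hspa1a, Hspa1b, their sum, Hsf1 and Hspa8, and below them for Dnajb14, Hspa13, Dnajc16 and Dnajc10.

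The abundant constitutive cytosolic chaperones differed little. Hspa8 had 77001, 79193 and 79826 normalized counts across the control pools, against 84255, 81898 and 83919 across the olanzapine pools. The groups did not overlap, and the log2 fold change was 0.08 ± 0.08 SE (adjusted p = 0.6228, edgeR). Of the stretches of Hspa8, 68.6% also occur in other annotated genes, first of all Gm15459, so its level carries this mapping limit. Hsp90aa1, the inducible cytosolic HSP90, was lower in all olanzapine pools, with 42902, 42954 and 46880 normalized counts against 40015, 41905 and 41026. Hsp90ab1, its constitutive partner, had 72687, 75487 and 77989 across the control pools, against 78925, 77060 and 84100 across the olanzapine pools, which overlap. The log2 fold changes were -0.11 ± 0.08 SE (adjusted p = 0.5036, edgeR) and 0.09 ± 0.08 SE (adjusted p = 0.6374, edgeR). That of Hsp90aa1 was -0.06 without control pool 3, and that of Hsp90ab1 was 0.05 without olanzapine pool 3. Of the stretches of Hsp90aa1, 53.1% also occur elsewhere.

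The Dnaja partners of cytosolic HSP70 also lay near 0. Dnaja1 and Dnaja2, general HSP40 partners of HSP70, had log2 fold changes of 0.01 ± 0.07 SE and 0.08 ± 0.06 SE. The pools of Dnaja2 did not overlap and those of Dnaja1 did. Dnajb2, a neuronal HSP40 that passes clients to degradation, was at 0.05 ± 0.07 SE with overlapping pools. With a pool left out Dnajb2 ran from 0.004 to 0.086 and Dnaja1 from -0.041 to 0.044. Hspbp1 was higher in all 3 olanzapine pools, with 2404, 2264 and 2317 normalized counts against 2663, 2462 and 2662 (log2 0.16 ± 0.07 SE, adjusted p = 0.2721, edgeR). Hspa2 and Hspa4l, an HSP70 known best from the testis and an HSP110, are named here after their values were seen. The pools of both were lower in the olanzapine group without overlap, at a log2 fold change of -0.36 ± 0.12 SE (adjusted p = 0.1649, edgeR) and -0.19 ± 0.07 SE (adjusted p = 0.218, edgeR).

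In the ER, Dnajb14 had the lowest p of the 66 tested members and, among them, the log2 fold change farthest from 0. It encodes a DnaJ protein anchored in the ER membrane whose J domain faces the cytosol and recruits HSP70 for the degradation of membrane proteins. The gene lies on the plus strand at chr3:137867675-137916557. Its normalized counts were 3901, 3530 and 3290 across the control pools, against 2594, 2117 and 2070 across the olanzapine pools. All olanzapine pools were far below all control pools, by more than the span within either group. The means were 3574 ± 307.5 and 2260 ± 289.9 (SD, n = 3 pools each), which is a fall to 0.632 of the control level (log2 -0.66 ± 0.11 SE, adjusted p = 0.02287, edgeR).

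The call of Dnajb14 was kept without olanzapine pool 1 (edgeR adjusted p = 0.00384) and lost without any of the other 5 pools, at edgeR adjusted p of 0.0514 to 0.0991. By limma on log2(FPKM + 1) without a filter it was also lost (adjusted p = 0.06351). Over the 6 fits the log2 fold change lay between -0.77 and -0.60. Of its 75-base stretches, 2.3% occur in another gene. Dnajb12, the closest relative of Dnajb14 in the same membrane and named after its values were seen, had a log2 fold change of 0.03 ± 0.08 SE with overlapping pools.

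The other 4 ER members without overlap, Hspa13, Dnajc10, Dnajb9 and Dnajc14, were lower in all olanzapine pools, as was Dnajc16. Hspa13, an HSP70 of the ER and microsomes, had normalized counts of 2381, 2366 and 2345 across the control pools, against 1907, 1899 and 2093 across the olanzapine pools (log2 -0.27 ± 0.07 SE, adjusted p = 0.09778, edgeR). Dnajc10, also called ERdj5, is a disulfide reductase that prepares misfolded proteins for degradation and had 2940, 2787 and 3004 against 2410, 2583 and 2453 (log2 -0.23 ± 0.07 SE, adjusted p = 0.1299, edgeR). Dnajc16, a membrane protein that the compartment lists left unassigned, had 3141, 3180 and 2910 against 2654, 2365 and 2405 (log2 -0.31 ± 0.07 SE, adjusted p = 0.07947, edgeR). None of these 3 passed the test in edgeR with all pools, and DESeq2 called Hspa13 and Dnajc16. Without olanzapine pool 1, Dnajc16 was called in edgeR as well (adjusted p = 0.03786). Dnajb9 (ERdj4), a BiP partner and a target of the unfolded protein response, was a little lower in all olanzapine pools, at -0.12 ± 0.07 SE (adjusted p = 0.3858, edgeR).

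Of the 7 members listed as targets of the unfolded protein response, 6 lay below 0 and 1 above, with a median of -0.18 and 0 called in edgeR. At an unadjusted p under 0.05, 2 of the 7 were lower and 0 higher, where 8.4% and 9.19% of all genes were. DESeq2 called 1 of the 7 lower, Hspa13, among 492 genes in all that it called lower. The median was -0.10 without control pool 3. The single gene above 0 was Dnajb11 (ERdj3), a secreted BiP partner, at 0.11 ± 0.09 SE with overlapping pools, and between 0.05 and 0.20 with a pool left out.

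A further sequence shared by 3 of these genes is shown because their counts also varied alike between pools. The ER stress element, to which the factor ATF6 binds, was searched as CCAAT followed after 9 bases by CCACG, on both strands of the same windows. It was in 0.119% of all windows and in 3 members, Hspa5, Hsp90b1 and Dnajc3, which are 3 of the 6 genes with a window on the unfolded protein response list. The element stands in capitals in stretches at chr2:34772020-34772048 on the plus strand, chr14:118937787-118937885 on the plus strand and chr10:86705510-86705694 on the minus strand. The stretch of Hsp90b1 holds it once on each strand.
Hspa5: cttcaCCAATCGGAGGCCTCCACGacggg
Dnajc3: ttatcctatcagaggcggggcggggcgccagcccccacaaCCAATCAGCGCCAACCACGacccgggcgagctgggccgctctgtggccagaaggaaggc
Hsp90b1: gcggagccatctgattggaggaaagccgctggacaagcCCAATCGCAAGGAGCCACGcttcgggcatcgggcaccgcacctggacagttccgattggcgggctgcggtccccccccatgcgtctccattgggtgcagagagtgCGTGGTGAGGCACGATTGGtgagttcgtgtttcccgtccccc
A match describes the letters of the window and is not a measured binding site.

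Hspa5, the HSP70 of the ER lumen, known as BiP, had normalized counts of 14565, 16630 and 19343 across the control pools, against 16145, 16851 and 15403 across the olanzapine pools. Hsp90b1 had 18832, 20882 and 22583 against 17682, 18956 and 18211, and Dnajc3, the BiP partner P58IPK, had 2972, 3523 and 4225 against 2863, 3398 and 2782. In each of the 3 genes control pool 3 was the highest of all pools and the groups overlapped. The log2 fold changes were -0.06 ± 0.11 SE for Hspa5 (adjusted p = 0.8135, edgeR), -0.18 ± 0.09 SE for Hsp90b1 (adjusted p = 0.3157, edgeR) and -0.25 ± 0.14 SE for Dnajc3 (adjusted p = 0.3916, edgeR). Without control pool 3 they were 0.06, -0.11 and -0.10, so the sign of Hspa5 turned. Exons of another gene on the opposite strand cover 10.3% of the exon bases of Hsp90b1.

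Control pool 3 was also the pool with the most choroid plexus RNA. The summed choroid markers were 45.3, 1888 and 5349 FPKM in control pools 1 to 3 and 799.9, 3440 and 28.6 FPKM in olanzapine pools 1 to 3. The 3 pools with the most of these markers were also the 3 with the most Hspa5, Hsp90b1 and Dnajc3. The same held for 2 small heat shock proteins, Hspb1 and Hspb8, a partner of BAG3 in selective autophagy that is named after its values were seen. Hspb8 had normalized counts of 640.5, 857.9 and 1205 across the control pools, against 727.5, 1141 and 682.6 across the olanzapine pools. Its pools with the highest counts were control pool 3 and olanzapine pool 2, so the groups overlapped.

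A model with the group and the log2 summed choroid markers, added after the data were seen, gave the slope of each gene on the markers. In edgeR, 80 genes were called higher with the markers (0.464% of all genes tested), and 0 of the 66 members were. At an unadjusted p under 0.05, 4 members had a slope above 0 (6.06%, all genes 3.93%) and 0 a slope below 0 (all genes 1.85%). The 4 were Hspb8, Dnajc3, Hspb1 and Hspa5. Per doubling of the markers, the log2 slope was 0.11 ± 0.03 SE for Hspb8 (adjusted p = 0.2712, edgeR) and 0.05 ± 0.02 SE for Dnajc3 (adjusted p = 0.5109, edgeR). The slope of Hsp90b1 was 0.02 ± 0.01 SE (adjusted p = 0.9771, edgeR) and was not among the 4. With the covariate the log2 fold change between the groups was -0.02 for Hspa5, -0.16 for Hsp90b1 and -0.19 for Dnajc3, none called in edgeR. In the same model Dnajb14 stood at a log2 fold change of -0.67 (adjusted p = 0.03425, edgeR) and Dnajb1 at 0.37 (adjusted p = 0.05471, edgeR).

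**Figure D4:**
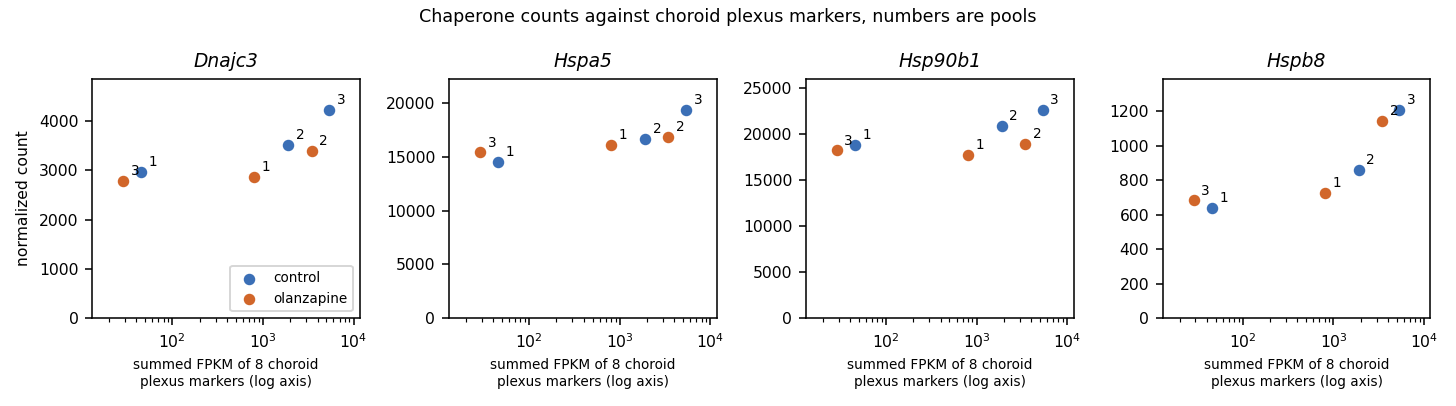
Normalized counts of Dnajc3, Hspa5, Hsp90b1 and Hspb8 (vertical axes from 0) against the summed FPKM of 8 choroid plexus markers (horizontal log axis), 1 point per pool numbered 1 to 3, blue for control and orange for olanzapine. The 3 pools with the most choroid markers, control pools 2 and 3 and olanzapine pool 2, have the highest counts of each gene.

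The mitochondrial chaperones showed no called gene. Of the 8 tested members 0 were called in edgeR (all genes 2.32%), 0 passed an unadjusted p of 0.05 (all genes 17.6%) and the median log2 fold change was 0.05. That median was -0.012 without olanzapine pool 3, 0.016 without control pool 2 and 0.011 with an offset for gene length, so its sign rested on 1 pool. Hspa9 (mortalin), the HSP70 of the matrix, was at -0.03 ± 0.07 SE and its partner Dnaja3 at 0.06 ± 0.07 SE, both with overlapping pools. With a pool left out Hspa9 ran from -0.071 to 0 and Dnaja3 from 0.026 to 0.088. Hspd1 (HSP60) and Hspe1 (HSP10), the chaperonin and its lid, lie head to head on chromosome 1, Hspd1 on the minus strand at chr1:55077835-55088243 and Hspe1 on the plus strand at chr1:55088132-55091307.

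Their shared start region is shown because it holds heat shock elements of 3 units, GAANNTTC followed after 2 bases by GAA, on both strands, at chr1:55088054-55088081. It is given on the plus strand, 94 to 67 bases before the start of Hspe1, with the elements in capitals.
Hspe1: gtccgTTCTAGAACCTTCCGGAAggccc
This longer element was in 0.603% of all windows and in 4 members, Dnajb6, Hspd1, Hspe1 and Hsph1. Hspd1 had normalized counts of 7402, 7395 and 7490 across the control pools, against 6067, 7157 and 7118 across the olanzapine pools. Hspe1 had 2598, 2510 and 2795 against 2224, 2949 and 3289. Hspd1 was lower in all olanzapine pools while Hspe1 overlapped, and olanzapine pool 1 was the lowest pool for both. The log2 fold changes were -0.13 ± 0.08 SE (adjusted p = 0.4388, edgeR) and 0.10 ± 0.14 SE (adjusted p = 0.7578, edgeR). Single pools moved both: without olanzapine pool 1 Hspd1 was at -0.06 and Hspe1 at 0.24, and without olanzapine pool 3 the sign of Hspe1 turned, to -0.03. Of their stretches, 33.7% and 29.1% occur in other annotated genes.

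At the synapse, the vesicle DnaJ genes lay slightly lower without passing the test. Dnajc5, the cysteine string protein that keeps the release machinery folded, had 14546, 13343 and 12939 normalized counts across the control pools, against 13021, 11092 and 11895 across the olanzapine pools, which overlap. Dnajc6 (auxilin), which uncoats clathrin vesicles together with HSP70, had 12001, 10724 and 10431 against 11854, 8378 and 9421, also with overlap. Their log2 fold changes were -0.18 ± 0.08 SE (adjusted p = 0.3174, edgeR) and -0.16 ± 0.13 SE (adjusted p = 0.5586, edgeR). That of Dnajc6 was -0.31 without olanzapine pool 1, -0.06 without olanzapine pool 2 and -0.10 without control pool 1. Over the 25 tested Dnajc genes as a family, 0 were called in edgeR, 6 were lower and 1 was higher without overlap (11% and 13.3% of all genes). The median log2 fold change of the family was -0.07, which moved to -0.12 without olanzapine pool 3 and to -0.026 by limma on log2(FPKM + 1) without a filter. Beside Dnajc10 and Dnajc16, the lower ones were Dnajc13, Dnajc14, Dnajc27 and Dnajc28, which are named after their values were seen. Dnajc13 (RME-8), an endosomal protein that sorts cargo for recycling, had normalized counts of 2512, 2636 and 2543 across the control pools, against 2399, 2184 and 2260 across the olanzapine pools. Dnajc27, a small GTPase with a J domain, had 6684, 6152 and 5893 against 5569, 5269 and 5557. Their log2 fold changes were -0.17 ± 0.07 SE (adjusted p = 0.2412, edgeR) and -0.19 ± 0.07 SE (adjusted p = 0.2178, edgeR), and neither passed the test.

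Olanzapine pool 1, the pool with the cortical markers, had the highest count of all pools for 10 of the 66 tested members (15.15%), against 22.8% of all genes tested. A pair of these is named after their values were seen. Dnajb5, an HSP40 rich in brain, had normalized counts of 3251, 4362 and 3264 across the control pools, against 6589, 4150 and 4800 across the olanzapine pools. Dnajc21, a nuclear factor of ribosome assembly, had 703.4, 634.8 and 740.5 against 1428, 810.9 and 783.2. In both genes olanzapine pool 1 was the highest of all. The log2 fold change was 0.52 ± 0.18 SE for Dnajb5 (adjusted p = 0.1986, edgeR) and 0.30 without that pool. For Dnajc21 it was 0.54 ± 0.22 SE (adjusted p = 0.262, edgeR) and 0.20 without that pool. The part of the cortical cells in these values was not tested.

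**Figure D5:**
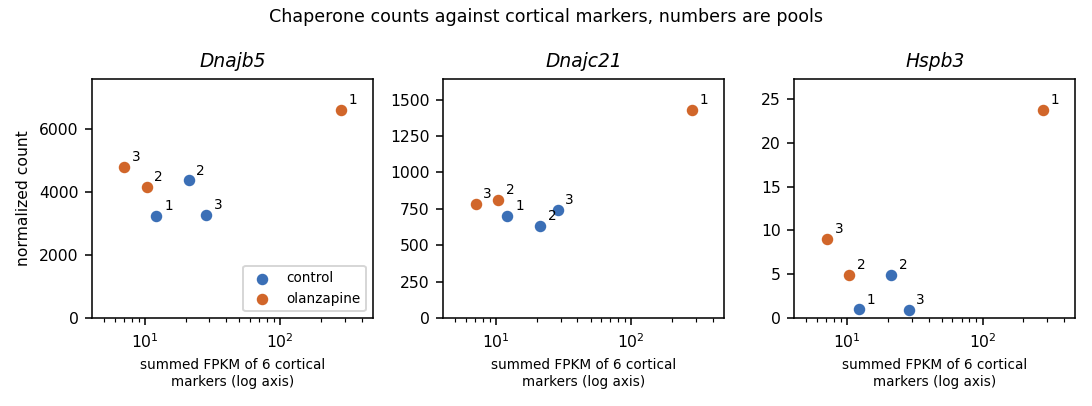
Normalized counts of Dnajb5, Dnajc21 and Hspb3 (vertical axes from 0) against the summed FPKM of 6 cortical markers (horizontal log axis), 1 point per pool numbered 1 to 3, blue for control and orange for olanzapine. Olanzapine pool 1 has the most cortical markers, 278.8 FPKM, and the highest count of each of the 3 genes.

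Too few reads for a test were found in 8 members. Dnajb7, Dnajb8 and Dnajc5g were at 0 counts in every pool, and Dnajc5b and Hspb9 had 1 count in all pools together. Hspb3, a small heat shock protein of muscle, had 1, 5 and 1 counts across the control pools, against 23, 5 and 9 across the olanzapine pools, with the most in olanzapine pool 1. Dnajc22 had 2 to 8 counts in the control pools and 2 to 12 in the olanzapine pools, and Hspb7 had 1 to 3 and 1 to 8. In edgeR without the count filter, 0 of the 5 with any count were called, and Hspb3 stood at an adjusted p of 0.3202.

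Beyond the symbol rule, 4 lists and the crystallins held the helpers of these chaperones, in all 74 genes of which 73 were tested. In edgeR 1 gene was called higher (1.37%, all genes 1.83%) and 0 lower (all genes 0.493%). At an unadjusted p under 0.05 there were 6 higher (8.22%, all genes 9.19%) and 4 lower (5.48%, all genes 8.4%). Among 25 cochaperones and heat shock factors, 19 lay above 0, with a median log2 fold change of 0.07 and Hsf1 as the called gene. That median ran from 0.054 to 0.11 with a pool left out. Among 22 genes of ER folding and the unfolded protein response, none was called in edgeR and the median was 0.01. Ern1, which encodes the stress sensor IRE1, had the lowest p there, with 492.6, 497.6 and 500.6 normalized counts across the control pools, against 408.1, 372.4 and 333.8 across the olanzapine pools (log2 -0.42, adjusted p = 0.128, edgeR). DESeq2 called Ern1 lower, at an adjusted p of 0.0446.

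Of 11 genes of mitochondrial quality control and 14 of the cytosolic chaperonin TRiC and prefoldin, 0 were called in edgeR. The lowest p in these lists belonged to Lonp1, a matrix protease, at a log2 fold change of 0.15 (adjusted p = 0.2412, edgeR), and to Pfdn6, a prefoldin subunit, at 0.24 (adjusted p = 0.2131, edgeR). Cryab, the small heat shock protein alphaB-crystallin, was at 0.28 and was not called in edgeR. With a pool left out it ran from 0.16, without olanzapine pool 3, to 0.41, without control pool 3.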

How the data were processed

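The authors pooled LS tissue of 3 mice per library and sequenced 3 libraries per group. Per the labels and the submitters' processing notes, reads were trimmed with fastp, aligned to mm10 with HISAT2 and counted with HTSeq; versions, annotation, strand setting and treatment of multiply mapped reads are not given in the sources used here. The authors deposited raw read counts per gene and FPKM values, which are counts scaled by gene length and library size.

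Counts were normalized by TMM and tested two-sided with edgeR 4.0.16 (quasi-likelihood, group as the only term) in R 4.3.3, after a filter for genes with enough counts (minimum count 10, minimum total 15), with Benjamini-Hochberg adjustment over 17255 genes. Normalized counts are counts divided by the relative effective library size. FPKM served for levels between genes. Alternatives used DESeq2 1.42.0, limma 3.58.1 on log2(FPKM + 1) and log2(FPKM + 0.1), other scalings and filters, offsets for gene length and GC content, a replicate block and each pool left out. The GC offset, the choroid plexus covariate and the summed Hspa1a and Hspa1b were chosen after seeing the data. The test was checked on simulated counts. Counted reads were 38208153 to 39868872 per pool, and the number of pools limits the precision. Members, gene lists and tests were chosen with earlier results of these data known. Compartments, sublists and pathway lists were set by hand from general knowledge.

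Named genes are the members called, the member of highest FPKM and the 2 of lowest p in each family, 18 core chaperones, and of each pathway list the called genes and that of lowest p. Genes outside this rule are marked in the text as chosen after their values were seen, apart from those named as examples of motif matches, of unmeasured genes or of shared sequence. Sequences come from RefSeq start windows, which were found for 60 of 74 members, and positions and 75-base stretches from GENCODE M21.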

Additional observations from a re-analysis of the deposited data

How the results depend on the processing

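The groups hold 3 pools each, and the calls of both members and of Hsf1 were lost in most fits with a pool left out. Members called higher numbered 1, with 3 by DESeq2 (Dnajb1, Hspa1a and Hspa1b), 6 at an unadjusted p under 0.05, and 0 with the choroid plexus covariate, by limma on log2(FPKM + 1) without a filter, and at the limits of the study. Members called lower numbered 1, with 3 by DESeq2 (Dnajb14, Dnajc16 and Hspa13), 8 at an unadjusted p, and 0 by limma without a filter and at the limits of the study. Over all genes, DESeq2 called 662 higher and 492 lower, against 316 and 85 in edgeR. The choroid plexus covariate gave 278 and 126, and limma without a filter 211 and 18. With each pool left out in turn 0 to 1 members were called higher and 0 to 2 lower, while over all genes 125 to 308 were called higher and 2 to 196 lower, the 2 members in the same fit as the 196 genes, without olanzapine pool 1. Pathway genes called higher numbered 1, with 2 by limma without a filter, 6 at an unadjusted p, and 0 under RLE normalization, without a count filter, with an offset for GC content or gene length, with the choroid plexus covariate, at the limits of the study and in every fit with a pool left out. Pathway genes called lower numbered 0, with 1 by DESeq2 (Ern1) and 4 at an unadjusted p. The cause of these differences was not tested.

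Several medians of log2 fold change moved with single pools. Left out in turn, the pools gave -0.029 to 0.028 for all members (-0.005 with all pools), -0.1 to 0.137 for Hspb (0.003), -0.098 to 0.092 for Hspd and Hspe (-0.017), -0.007 to 0.057 for Dnaja (0.036), -0.071 to -0.004 for Hspa (-0.048) and -0.134 to -0.059 for Hsp90 (-0.111). The Dnajc median was -0.026 by limma without a filter and -0.12 to -0.064 with a pool left out. For the heat shock factor list it was 0.031 with a gene length offset and 0.01 to 0.11 with a pool left out, and for the unfolded protein response list -0.224 to -0.099. The ER folding list ran from -0.055 to 0.08 with a pool left out, mitochondrial quality control stood at 0.069 by limma on log2(FPKM + 0.1) and 0.018 to 0.078 with a pool left out, and TRiC and prefoldin (0.052 with all pools) at -0.007 with the gene length offset and 0.018 to 0.094 with a pool left out. Of 34 named genes followed through these fits, 4 changed sign with a pool left out, namely Dnaja1, Hspa5, Hspa9 and Hspe1. None of them was called, and Hspa9 moved only as far as 0 in rounded values. Dnajb12, Hspb8, Hspa2, Hspa4l, Dnajc13 and Dnajc27, named after their values were seen, were not among the 34.

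The replicate numbers showed no pairing of the samples. Same-numbered pools had correlations of -0.003, 0.062 and -0.255 in their deviations from the group means, and pools of different number had -0.351 to 0.339. With 3 pools per group, such values cannot settle whether the samples were paired. With a replicate block, 0 members were called higher and 1 lower, and 0 pathway genes were called higher, where all genes called fell from 316 to 128 higher and from 85 to 12 lower. Dnajb1 stood at an edgeR adjusted p of 0.1013, Hsf1 at 0.103 and Dnajb14 at 0.0208.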
